A study of Mus musculus with 6 samples.

Results

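Retinoic acid is made from vitamin A inside the testis, and 9 genes that store, oxidize, break down, bind or answer to it were followed in testes of WT, P2KO and DKO mice. They were taken by name, with earlier results of these data known. They were Lrat (retinol storage), Rdh10 and Rdh11 (oxidation of retinol), Aldh1a1 and Aldh1a2 (oxidation of retinaldehyde), Cyp26a1 and Cyp26b1 (breakdown of retinoic acid), Crabp1 (binding of retinoic acid) and Stra8 (response of germ cells). All 9 were among the 20744 genes with enough counts to be tested, out of 55536 genes in the table. Aldh1a1, a retinaldehyde dehydrogenase, was higher in DKO than in both other genotypes, a call that edgeR made and that was lost with DESeq2 and with edgeR's robust dispersions, and none of the other 8 genes passed the test in any comparison.

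WT were FVB/NJ mice. P2KO mice carry a gene trap on the same background, in which part of exon 1 of Padi2 is replaced by LacZ and neomycin sequences. DKO mice carry this trap and, in addition, a frameshift deletion in exon 1 of Padi4 that was made by CRISPR/Cas9 in P2KO embryos, and 1 established line was used. Padi2 and Padi4 encode peptidylarginine deiminases, enzymes that convert arginine in proteins to citrulline. The 3 genotypes were kept as separate homozygous lines, so that a difference between genotypes and a difference between lines cannot be told apart. Whole testes of 4-month-old adults were used, with 2 mice and so 2 libraries of poly(A) RNA per genotype.

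Retinol circulates bound to carrier proteins and is held in cells as retinyl esters. It is oxidized first to retinaldehyde, reversibly, and then to retinoic acid, irreversibly, and enzymes of the CYP26 family remove the product. In the testis, retinoic acid acts on spermatogonia and on germ cells about to enter meiosis through nuclear receptors that pair a RAR with an RXR, and Stra8 is a gene it switches on at that step. Aldh1a1 is known from Sertoli and Leydig cells, Aldh1a2 from germ cells, and Cyp26b1 from somatic cells of the tubule wall.

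The receptors bind hexamers such as AGGTCA arranged as direct repeats, most typically with 5 bases between the copies. The RefSeq promoter windows (GRCm38.p6, 250 bases before to 50 bases after an annotated start) were therefore read on both strands for this hexamer and 3 relatives. They were AGTTCA, which 14.0% of all 32851 windows held, the form GGGTCA, which 13.7% held, and the form GGTTCA, which 10.4% held, beside 16.3% for the hexamer named first. A window was at hand for 8 of the 9 genes, 10 windows in all, and Rdh10 was not among them. At least 1 hexamer occurred in 5 windows of 4 genes (Cyp26a1, Stra8, Aldh1a1 and Rdh11), beside 43.7% of all 32851 windows. A direct repeat with 5 spacer bases, which is made of hexamers already counted, occurred in 32 of all windows (0.0974%), and among the 10 windows of the 9 genes it occurred in that of Cyp26a1 alone. The windows of 3 genes are shown, Cyp26a1 for its repeat, Stra8 as the response gene of germ cells and Aldh1a1 as the gene that differed between genotypes. Letters are given 5′ to 3′ on the strand of the gene, which is the plus strand for all 3, and capitals mark the hexamers in either direction. The windows lie at chr19:37697558-37697857 (Cyp26a1), chr6:34920698-34920997 (Stra8) and chr19:20601718-20602017 (the second of 2 windows of Aldh1a1, within the span that Ensembl gives the gene).
Cyp26a1: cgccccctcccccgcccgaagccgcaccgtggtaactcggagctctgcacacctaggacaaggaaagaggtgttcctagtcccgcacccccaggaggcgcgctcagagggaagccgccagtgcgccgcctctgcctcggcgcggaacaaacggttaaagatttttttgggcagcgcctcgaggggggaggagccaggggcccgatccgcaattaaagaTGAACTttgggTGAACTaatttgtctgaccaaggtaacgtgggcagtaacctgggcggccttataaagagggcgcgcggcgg
Stra8: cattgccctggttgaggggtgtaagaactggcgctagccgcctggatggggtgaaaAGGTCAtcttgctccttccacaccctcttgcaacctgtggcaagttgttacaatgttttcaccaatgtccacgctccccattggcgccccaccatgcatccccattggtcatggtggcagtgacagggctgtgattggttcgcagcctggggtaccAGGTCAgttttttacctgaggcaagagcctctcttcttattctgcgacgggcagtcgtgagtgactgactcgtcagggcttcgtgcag
Aldh1a1: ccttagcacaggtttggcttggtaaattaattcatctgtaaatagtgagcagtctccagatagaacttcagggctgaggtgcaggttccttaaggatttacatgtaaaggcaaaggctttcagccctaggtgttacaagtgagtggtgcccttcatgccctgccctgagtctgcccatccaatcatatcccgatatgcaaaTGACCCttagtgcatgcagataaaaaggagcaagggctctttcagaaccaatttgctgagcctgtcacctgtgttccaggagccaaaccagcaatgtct
In Cyp26a1 the repeat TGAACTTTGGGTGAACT fills bases 219 to 235 of the window, and both of its hexamers read AGTTCA on the minus strand. Stra8 holds AGGTCA at bases 57 to 62 and again at bases 213 to 218, too far apart to form such a repeat. Aldh1a1 holds 1 hexamer, GGGTCA on the minus strand at bases 202 to 207, and its other window holds none. A match of letters is a description of the sequence and shows no binding.

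Libraries held from 21939393 to 27306679 counts on genes. Counts of Padi4 were 20 and 43 in WT, 11 and 10 in P2KO and 4 in each DKO library (DKO against WT, log2 fold change -2.94, adjusted p = 0.000278, edgeR's quasi-likelihood test, adjusted by Benjamini and Hochberg's method over all tested genes). For Padi4, P2KO against WT gave -1.63 (edgeR adjusted p = 0.0959) and DKO against P2KO -1.31 (edgeR adjusted p = 0.404). The test therefore did not separate DKO from P2KO by this gene. Counts of Padi2 were 47 and 64 in WT, 100 and 55 in P2KO and 59 and 83 in DKO, so that reads on this gene did not separate the genotypes and do not check the label of the trap. The paper checked the trap by other means. It reports no Padi2 transcript by RT-PCR of salivary gland, and no PAD2 protein on Western blots of spleen, in P2KO and DKO. Germ cell and somatic markers of testis were present in every library, led by Prm2, a protamine of elongating spermatids, at 5098 to 6084 RPKM (reads scaled to exon length and library size), Clu of Sertoli cells at 183.2 to 212.4 RPKM and Cyp17a1 of Leydig cells at 125.8 to 186.3 RPKM. Of 6 epididymis markers only Cst8 passed the filter, and Lcn5 was at 0 in every library. In whole tissue, fewer cells of a type and less RNA per cell cannot be told apart.

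Levels of the 9 genes, per transcript length, fell into 2 tiers in WT (RPKM, mean ± SD, n = 2). The upper tier held Rdh11 at 74.1 ± 0.663, Aldh1a1 at 67.7 ± 1.76 and Aldh1a2 at 51.5 ± 0.250, so that both enzymes that make retinoic acid from retinaldehyde, with Rdh11, had the highest levels of the list. The lower tier began with Cyp26b1 at 5.67 ± 0.812, Stra8 at 5.08 ± 0.516 and Rdh10 at 4.97 ± 0.798, whose WT libraries overlapped and whose order is therefore not settled. Crabp1 at 3.44 ± 0.805, Lrat at 2.22 ± 0.0151 and Cyp26a1 at 0.540 ± 0.0434 followed, each below the one before it in both libraries. Among all tested genes, the RPKM of Rdh11 lay above that of 95.8% of genes and that of Cyp26a1 above 19.6%. The order at the top rests on the length used, since the several transcripts of Aldh1a1 have a merged exon length of 4937 nucleotides and the longest of them has 2358. With the longest transcript, Aldh1a1 stood first at 141.8 RPKM and Rdh11 second at 78.4.

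**Figure D1:**
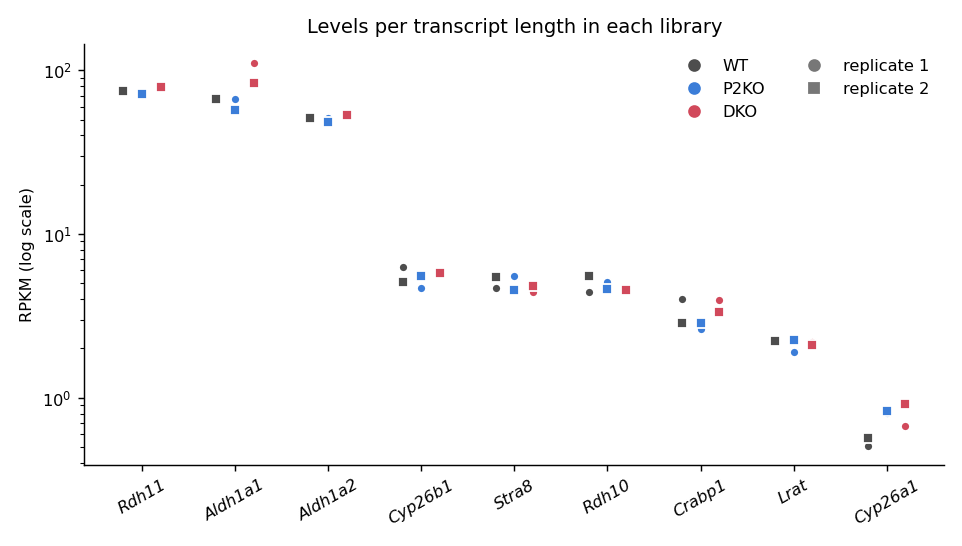
RPKM (TMM-scaled, per merged exon length, log scale) of each of the 9 genes in each library, with genes ordered by their mean in WT, colours for genotypes and shapes for replicates. Rdh11, Aldh1a1 and Aldh1a2 lie between 48.2 and 110.5 RPKM in all libraries and the other 6 genes between 0.509 and 6.25, and points of a genotype often cover each other.

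The comparisons ask whether loss of Padi2 alone, or of Padi2 and Padi4, goes with a different level of these genes. In P2KO against WT, 0 of the 9 genes passed edgeR's quasi-likelihood test at an adjusted p under 0.05, where 0.337% of all tested genes did, and 0 had an unadjusted p under 0.05. DESeq2 and limma-voom also called 0. In DKO against WT 1 of the 9 passed, beside 3.22% of all genes, and in DKO against P2KO again 1 of 9, beside 1.21%. The gene was Aldh1a1 both times. The libraries of the genotypes compared did not overlap for 5, 5 and 6 of the 9 genes in that order of comparisons, beside 37.5%, 43.2% and 42.8% of all tested genes, so separated libraries were common throughout the transcriptome. In each comparison 7 of the 9 genes had a log2 fold change between -0.2 and 0.2, as did 72.5%, 67.3% and 69.1% of all genes. Genes that passed are referred to as called, and a normalized count is a read count after scaling of the libraries to a common size. Both comparisons with WT use the same WT libraries, and both comparisons of DKO the same DKO libraries.

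**Figure D2:**
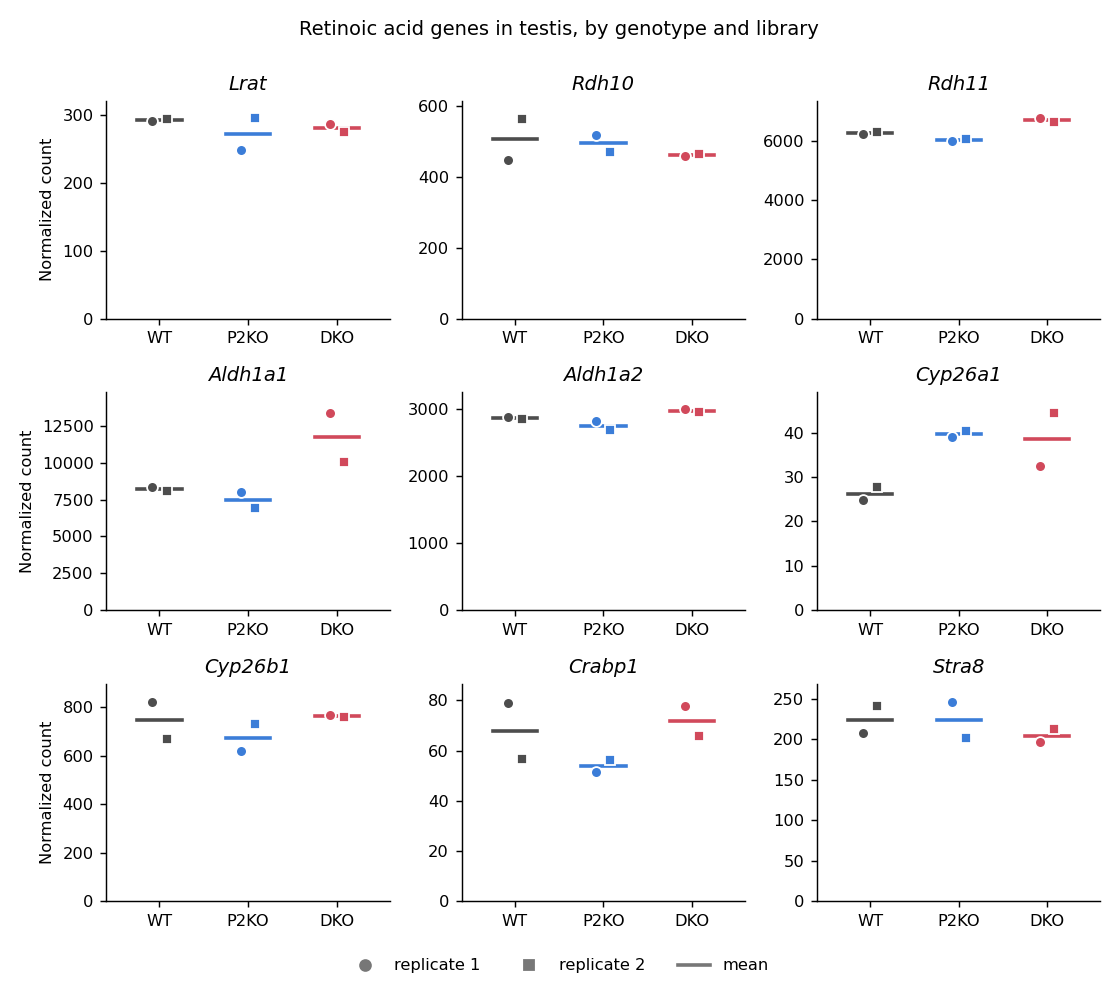
Normalized count (linear axis from 0) of each of the 9 genes in WT, P2KO and DKO, with a circle for replicate 1, a square for replicate 2 and a bar for the mean. Both DKO libraries of Aldh1a1, at 10070 and 13380, sit above its other 4 libraries, and both WT libraries of Cyp26a1, at 24.8 and 27.8, sit below its other 4.

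Lrat (ENSMUSG00000028003, chromosome 3 from 82892579 to 82903973, minus strand) encodes the enzyme that esterifies retinol for storage. Normalized counts were 290.6 and 293.4 in WT, 249.2 and 294.9 in P2KO and 286.4 and 275.6 in DKO. The 2 P2KO libraries lay on either side of all others, and both DKO libraries lay slightly below WT. The log2 fold change was -0.11 ± 0.120 (SE, n = 2 per genotype) in P2KO against WT and -0.055 ± 0.119 in DKO against WT, with adjusted p of 0.866 and 0.905 by edgeR's quasi-likelihood test. The gene overlaps Rbm46os on the other strand, which held 193 to 318 counts per library, and since the strand of the deposited counts is not given in the sources used here, reads of both genes cannot be fully told apart.

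Rdh10 (ENSMUSG00000025921, chromosome 1 from 16105774 to 16133734, plus strand) encodes a retinol dehydrogenase of the first oxidation step. The libraries held normalized counts of 449.5 and 564.7 in WT, 520.7 and 471.6 in P2KO and 459.8 and 466.5 in DKO. The WT libraries lay furthest apart and enclosed P2KO and DKO. DKO against WT gave a log2 fold change of -0.14 ± 0.104 (95% interval -0.35 to 0.074, edgeR adjusted p = 0.620).

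Rdh11 (ENSMUSG00000066441, chromosome 12 from 79174337 to 79192293, minus strand) encodes a retinaldehyde reductase and retinol dehydrogenase. Normalized counts stood at 6238 and 6317 in WT, 5995 and 6048 in P2KO and 6771 and 6655 in DKO. The libraries were tight and the genotypes did not overlap, with DKO highest and P2KO lowest. The differences were small, at 1.07-fold in DKO against WT (log2 0.097 ± 0.0563, edgeR adjusted p = 0.472) and 1.11-fold in DKO against P2KO (log2 0.16 ± 0.0563, unadjusted p = 0.00861, edgeR adjusted p = 0.202). Neither passed the test. Its closest other transcript, of Gm7880, was 86.1% identical over 873 nucleotides.

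Aldh1a1 (ENSMUSG00000053279, chromosome 19 from 20492715 to 20643465, plus strand) encodes a retinaldehyde dehydrogenase. By library, normalized counts were 8354 and 8054 in WT, 8042 and 6957 in P2KO and 13380 and 10070 in DKO. Both DKO libraries were above all 4 others, and DKO replicate 1 stood well above DKO replicate 2. Aldh1a1 rose 1.43-fold in DKO against WT (log2 0.52 ± 0.0784, 95% interval 0.36 to 0.68, adjusted p = 3.5e-05, edgeR's quasi-likelihood test). Against P2KO it rose 1.56-fold in DKO (log2 0.65 ± 0.0786, 95% interval 0.49 to 0.81, adjusted p = 1.13e-06, edgeR). In P2KO against WT the difference was -0.13 ± 0.0787 on the log2 scale and did not pass (edgeR adjusted p = 0.700).

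The call of Aldh1a1 rests on how the spread between replicates is estimated. Its DKO libraries differed 1.33-fold, with a coefficient of variation of 20% beside 2.59% in WT and 10.2% in P2KO, while the fit takes much of its spread from other genes. With DESeq2 on all 6 libraries the log2 fold change was as large (0.52 in DKO against WT and 0.65 in DKO against P2KO) but its adjusted p was 0.145 and 0.0557. With edgeR's robust dispersions, which let a variable gene keep its own spread, the standard error was 0.172 and the adjusted p was 0.328 and 0.3. Over the other alternatives run, limma-voom among them at an adjusted p of 4.98e-05 and 1.92e-06, the gene was called in both comparisons of DKO, except with DESeq2 on the 2 genotypes compared (0.334 and 0.101) and, against WT, without DKO replicate 1. Without DKO replicate 1 the log2 fold change against WT was 0.29 and its edgeR adjusted p 0.0547, and without DKO replicate 2 it was 0.71. Its direction was the same under all 20 alternatives.

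**Figure D3:**
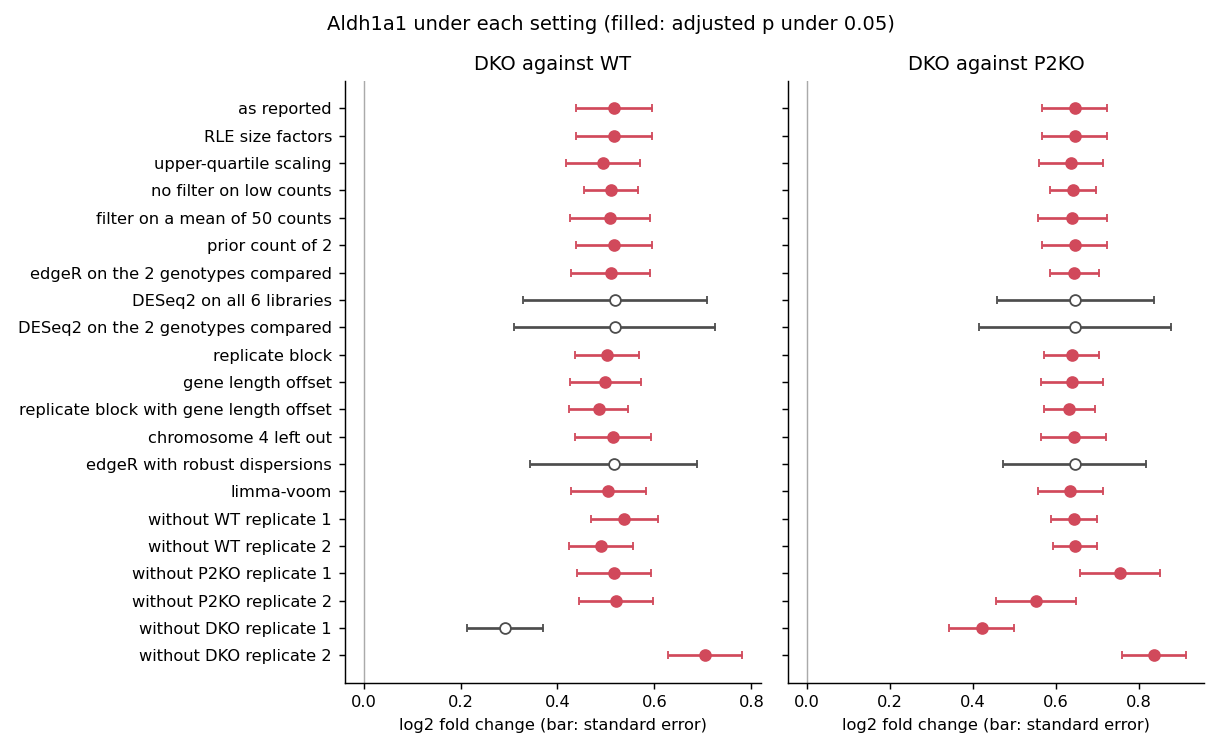
Log2 fold change of Aldh1a1 in DKO against WT (left) and against P2KO (right) as reported and under each alternative, with bars for the standard error and filled points where the adjusted p is under 0.05. All points lie above 0, from 0.29 to 0.71 against WT and from 0.42 to 0.84 against P2KO, and the open points are those of DESeq2, of edgeR with robust dispersions and, against WT, of the fit without DKO replicate 1.

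Leydig cell markers moved with Aldh1a1 in part. In DKO against WT, 3 of the 6 were called higher by edgeR's quasi-likelihood test, namely Cyp11a1 (log2 0.28), Cyp17a1 (0.31) and Star (0.51), which act in steroid synthesis, while Hsd3b1, another steroidogenic enzyme, was called lower (-0.46), and Insl3 (0.040) and Lhcgr (-0.38) did not pass, beside 2.06% of all tested genes called higher. In DKO against P2KO, where Aldh1a1 was also called, 0 of the 6 were called by edgeR, beside 1.21% of all tested genes. An unadjusted p under 0.05 was met by 4, beside 11.8% of all tested genes. The median log2 fold change of the 6 was -0.09. The summed normalized count of the 6 was 16270 and 15880 in WT, 18680 and 16730 in P2KO and 20910 and 17110 in DKO, so DKO replicate 1 was highest for both this sum and Aldh1a1. The ratio of Aldh1a1 to the sum was 0.514 and 0.507 in WT, 0.430 and 0.416 in P2KO and 0.640 and 0.589 in DKO. Most of the sum was Cyp17a1, at 9205 and 8547 in WT, 10520 and 9146 in P2KO and 12650 and 9389 in DKO. Of 9 Sertoli cell markers 0 were called by edgeR in DKO against WT and 0 had an unadjusted p under 0.05. In DKO against P2KO 0 of the 9 were called and 1 had an unadjusted p under 0.05. There 0 of the 9 had a positive log2 fold change, beside 49.2% of all tested genes, and their median was -0.152. The Sertoli sum ran from 22260 to 25820 over the 6 libraries with no separation of genotypes. Markers of endothelial cells, of which 4 of 5 were tested, summed to 225.3 and 249.0 in WT, 265.2 and 267.2 in P2KO and 301.7 and 323.4 in DKO. In DKO against WT 0 of the 4 were called by edgeR, beside 3.22% of all tested genes. Of the 4, 2 had an unadjusted p under 0.05, beside 14.1% of all tested genes. The elongating spermatid markers, summed, were 335000 and 347300 in WT, 283800 and 314300 in P2KO and 306800 and 306000 in DKO. Of these 5, edgeR called 1 lower in P2KO against WT and 2 in DKO against WT, beside 29 and 240 of all 20744 tested genes. The part of any of these cell types in the level of Aldh1a1 was not tested.

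No other transcript came near to identity with Aldh1a1. The closest was that of Aldh1a7, another gene of the Aldh1a group, 89.1% identical over 2072 nucleotides. Aldh1a7 held 145 and 162 counts in WT and 240 and 145 in DKO (log2 0.30 ± 0.160, edgeR adjusted p = 0.409). Aldh1a1 also overlaps C730002L08Rik on the other strand, which held 39 to 52 counts. Among the tested genes whose log2 CPM followed that of Aldh1a1 most closely over the 6 libraries were Slc12a7, a potassium and chloride cotransporter (Pearson r = 0.997), and Apol6, an apolipoprotein (0.988). Of all tested genes 59 (0.284%) reached 0.95, the points share libraries and depth, and neither of these genes was called in any comparison. For Slc12a7 the normalized counts were 620.7 and 613.7 in WT, 613.8 and 594.0 in P2KO and 724.2 and 664.7 in DKO, a much smaller range than that of Aldh1a1.

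Aldh1a2 (ENSMUSG00000013584, chromosome 9 from 71215789 to 71296243, plus strand) encodes a retinaldehyde dehydrogenase that catalyses the same step. The normalized counts were 2873 and 2853 in WT, 2820 and 2678 in P2KO and 2993 and 2950 in DKO. The genotypes did not overlap, in the same order as for Aldh1a1 and Rdh11, but within a narrow range of 1.12-fold from the lowest to the highest library. DKO was 1.04-fold of WT (log2 0.054 ± 0.0619, 95% interval -0.072 to 0.18, edgeR adjusted p = 0.780) and lay slightly above P2KO (log2 0.11 ± 0.0618, edgeR adjusted p = 0.490). The 95% intervals of Aldh1a1 and Aldh1a2 in DKO against WT did not overlap in the fit as reported. That of Aldh1a1 rests on its standard error there, which was larger with edgeR's robust dispersions. The difference between these genes was not itself tested.

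**Figure D4:**
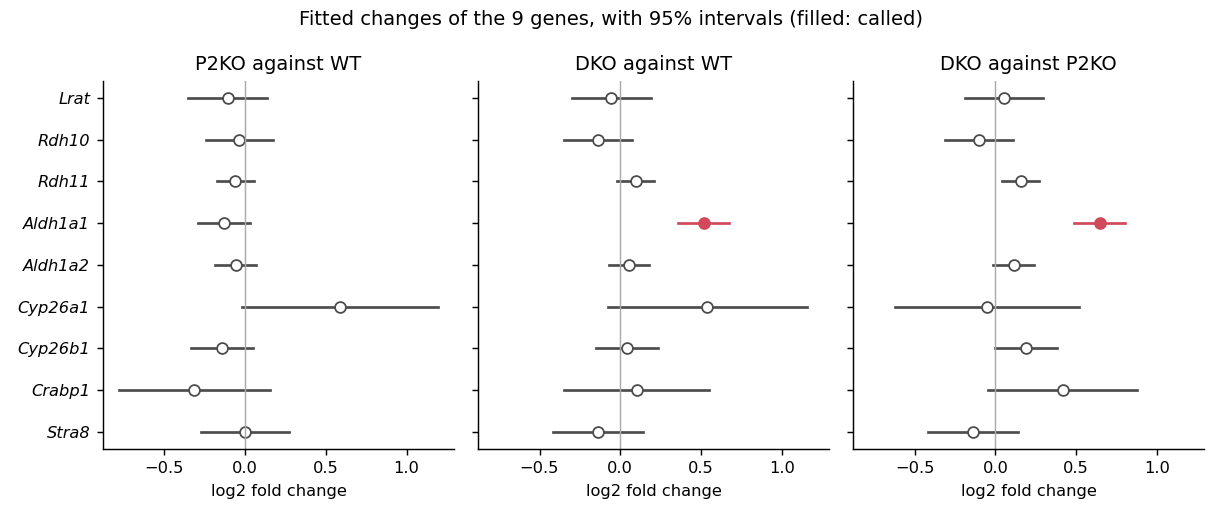
Fitted log2 fold change of the 9 genes in each comparison, with 95% intervals and filled points for called genes. Aldh1a1 is the filled gene in both comparisons of DKO, and the widest intervals are those of Cyp26a1 and Crabp1, the genes with the fewest counts.

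Cyp26a1 (ENSMUSG00000024987, chromosome 19 from 37697798 to 37701536, plus strand) encodes an enzyme that hydroxylates retinoic acid, and carries the repeat shown above in its promoter. It was the least abundant of the 9, with 22 and 30 reads in WT, 44 and 38 in P2KO and 34 and 42 in DKO. As normalized counts these were 24.8 and 27.8, 39.0 and 40.5, and 32.6 and 44.5. All 4 libraries of the mutants lay above both WT libraries. The fold was 1.5 in P2KO against WT (95% interval 0.985 to 2.29, unadjusted p = 0.0581, edgeR adjusted p = 0.596) and 1.45 in DKO against WT (0.947 to 2.22, edgeR adjusted p = 0.450), and neither passed.

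Cyp26b1 (ENSMUSG00000063415, chromosome 6 from 84571414 to 84593908, minus strand) encodes another retinoic acid hydroxylase, with a higher level per length than Cyp26a1. Normalized counts were 820.1 and 669.3 in WT, 618.2 and 728.2 in P2KO and 768.2 and 760.1 in DKO. The WT libraries enclosed those of DKO. The log2 fold change was 0.042 ± 0.0938 in DKO against WT (95% interval -0.15 to 0.23, edgeR adjusted p = 0.907) and 0.19 ± 0.0942 in DKO against P2KO (edgeR adjusted p = 0.439).

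Crabp1 (ENSMUSG00000032291, chromosome 9 from 54764748 to 54773110, plus strand) encodes a cytoplasmic protein that binds retinoic acid. The libraries held normalized counts of 78.9 and 56.5 in WT, 51.4 and 56.4 in P2KO and 77.6 and 65.7 in DKO. P2KO was lowest, if barely, and WT and DKO overlapped. The log2 fold change was -0.32 ± 0.230 in P2KO against WT (edgeR adjusted p = 0.766) and 0.42 ± 0.226 in DKO against P2KO (95% interval -0.043 to 0.88, edgeR adjusted p = 0.481).

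Stra8 (ENSMUSG00000029848, chromosome 6 from 34920163 to 34939344, plus strand) is induced by retinoic acid in germ cells about to enter meiosis. Its normalized counts were 208.4 and 240.7 in WT, 246.6 and 202.3 in P2KO and 196.4 and 213.1 in DKO. All 3 genotypes overlapped. The log2 fold change in DKO against WT was -0.14 ± 0.137 with a 95% interval from -0.42 to 0.14 (edgeR adjusted p = 0.733), which as a fold runs from 0.748 to 1.10. In P2KO against WT it was 0.00 ± 0.135 (edgeR adjusted p = 1.00), with a 95% interval from 0.827-fold to 1.21-fold.

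Around these 9 genes, a wider list of 65 genes of retinoid uptake, metabolism, reception and response was read, of which 53 were tested. The 12 that were not tested include Rdh1, Rdh16 and other dehydrogenases, Cyp26c1 and Crabp2, and Rdh7, Rdh9 and Rdh19 were at 0 in every library. In P2KO against WT 0 of the 53 were called by edgeR, 8 had an unadjusted p under 0.05 (8.57% of all tested genes did), and DESeq2 and limma-voom also called 0. In DKO against WT 5 were called higher and 0 lower, where 2.06% of all tested genes were called higher, and 16 had an unadjusted p under 0.05, beside 14.1% of all genes. In DKO against P2KO 0 were called and 8 had an unadjusted p under 0.05, beside 11.8% of all genes, while DESeq2 and edgeR on the 2 genotypes compared each called 2 (Lipe and Ncor1), and DESeq2 on all libraries and limma-voom called 0. The median log2 fold change of the list was 0.099, 0.020 and 0.054 in the 3 comparisons, and that of all tested genes 0.004, -0.005 and -0.003.

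Of the 5 genes called in DKO against WT, 4 were coregulators that nuclear receptors of many kinds recruit. Ncor1, a corepressor, had normalized counts of 3367 and 2836 in WT, 3294 and 3465 in P2KO and 3911 and 3959 in DKO (log2 0.35 ± 0.0674, adjusted p = 0.00119, edgeR's quasi-likelihood test). Ncoa3, a coactivator, had 810.0 and 657.3 in WT, 795.6 and 832.5 in P2KO and 937.8 and 943.6 in DKO (log2 0.36 ± 0.0876, edgeR adjusted p = 0.0110). In both, WT replicate 2 was the lowest library and the DKO libraries were the highest. Ep300 and Crebbp, histone acetyltransferases, had log2 fold changes of 0.33 ± 0.0780 and 0.33 ± 0.0765 (edgeR adjusted p = 0.0108 and 0.00903). The other 4 coregulators, with Ncoa1, Ncoa2 and Nrip1 among them, lay between 0.20 and 0.25 and did not pass. The fitted log2 fold changes of the 8 ran from 0.20 to 0.36 in DKO against WT, where the libraries of all 8 did not overlap, beside 43.2% of all tested genes. All 8 had an unadjusted p under 0.05 in DKO against WT, beside 14.1% of all tested genes. The log2 fold changes ran from 0.071 to 0.23 in P2KO against WT and from 0.067 to 0.22 in DKO against P2KO. In both, 0 were called by edgeR on all 6 libraries, beside 0.337% and 1.21% of all tested genes. An unadjusted p under 0.05 was met by 2 and 3 of the 8, beside 8.57% and 11.8%. The libraries did not overlap for 2 and 3 of the 8 there, beside 37.5% and 42.8% of all tested genes.

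These calls changed with the libraries used and with an offset for gene length, as did the calls among all genes. The summed normalized count of the 8 coregulators was 13670 and 11450 in WT, 13100 and 14650 in P2KO and 14930 and 15680 in DKO, with WT replicate 2 lowest by a wide margin. Without WT replicate 2, 1 gene of the wider list was called in DKO against WT (Crebbp), and without WT replicate 1, 9 were. Without DKO replicate 1, 3 were called, and without DKO replicate 2, 2 were. Over all tested genes, 428 were called higher as reported, 217 without WT replicate 2, 762 without WT replicate 1, 230 without DKO replicate 1 and 129 without DKO replicate 2. Merged exon lengths of the 8 ran from 7895 to 15642 nucleotides beside a median of 3330 over all tested genes. With an offset for gene length per library, Ncor1, Ncoa3 and Rarres1 were called and Ep300 and Crebbp were not, and 291 of all genes were called higher. With DESeq2 on WT and DKO alone, Ncor1 was called by itself of the list, and 191 of all genes were called higher.

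Rarres1, named for its response to a retinoid in skin cells, was the fifth called gene. Its normalized counts were 420.2 and 370.3 in WT, 468.3 and 448.2 in P2KO and 587.2 and 499.3 in DKO, so the 3 genotypes did not overlap. It rose 1.38-fold in DKO against WT (log2 0.47 ± 0.104, edgeR adjusted p = 0.00529) and lay at a log2 of 0.22 ± 0.105 in P2KO against WT (edgeR adjusted p = 0.573). It was not called without WT replicate 2 (edgeR adjusted p = 0.107) or without DKO replicate 1 (0.240). The other response genes that were tested, 12 in number, were not called. Meiosin, the partner of Stra8 at meiotic entry, had 259.1 and 258.3 normalized counts in WT, 282.9 and 290.6 in P2KO and 323.8 and 323.4 in DKO (log2 0.32 ± 0.115 in DKO against WT, unadjusted p = 0.00825, edgeR adjusted p = 0.140). Sycp3, of the synaptonemal complex and the most abundant of the group, ranged from 3703 to 3907 normalized counts, and its log2 fold change in DKO against WT was -0.029 ± 0.0601 (edgeR adjusted p = 0.898).

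Of the 32 other tested genes of the list, which act in uptake, oxidation, binding and reception, 0 were called by edgeR on all 6 libraries in any comparison. Lipe was called higher in DKO against P2KO in fits on the 2 genotypes compared, as given above, and with either WT library left out, and in DKO against WT without WT replicate 1. Adh1, an alcohol dehydrogenase, was called lower in P2KO against WT without WT replicate 1. Lipe, a lipase that releases retinol from its esters among other substrates, was the most abundant gene of uptake and storage, with 13740 and 12540 normalized counts in WT and 14490 and 14460 in DKO (log2 0.14 ± 0.0574, edgeR adjusted p = 0.227). Rbp7, a retinol-binding protein, had the largest fitted log2 fold change of the list, 1.29 ± 0.543 in DKO against WT, on 5.55 to 17.2 normalized counts (edgeR adjusted p = 0.246). It lies on chromosome 4, as Padi2 and Padi4 do. Among the dehydrogenases, Rdh14 had the highest mean RPKM in WT, where its libraries overlapped those of Adh1 and Adh4, and its log2 fold change in DKO against WT was -0.069 ± 0.130. Rdh12, on 6.71 to 11.3 normalized counts, had the largest fitted change of that group in DKO against WT (-0.59 ± 0.564). Aldh8a1, of the retinaldehyde oxidation genes, was at -0.49 ± 0.326 in DKO against WT and -0.88 ± 0.309 in DKO against P2KO (unadjusted p = 0.00742, edgeR adjusted p = 0.189). Fabp5, which carries fatty acids and retinoic acid, was at -0.082 ± 0.183.

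All 6 receptor genes were tested and 0 were called by edgeR, and 0 had an unadjusted p under 0.05 in any comparison. Rxra had the highest mean RPKM of the 6 in WT, where its libraries overlapped those of Rxrb. Normalized counts of Rxra were 984.6 and 978.5 in WT, 1078 and 1055 in P2KO and 978.0 and 964.8 in DKO, with DKO and WT nearly level (log2 -0.015 ± 0.0757, edgeR adjusted p = 0.965). Rarb, a receptor gene that is itself a known target of retinoic acid, had the largest fitted change of the 6 in DKO against WT, with 33.8 and 41.7 in WT, 43.5 and 40.5 in P2KO and 45.0 and 49.8 in DKO (log2 0.32 ± 0.265, edgeR adjusted p = 0.669).

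**Figure D5:**
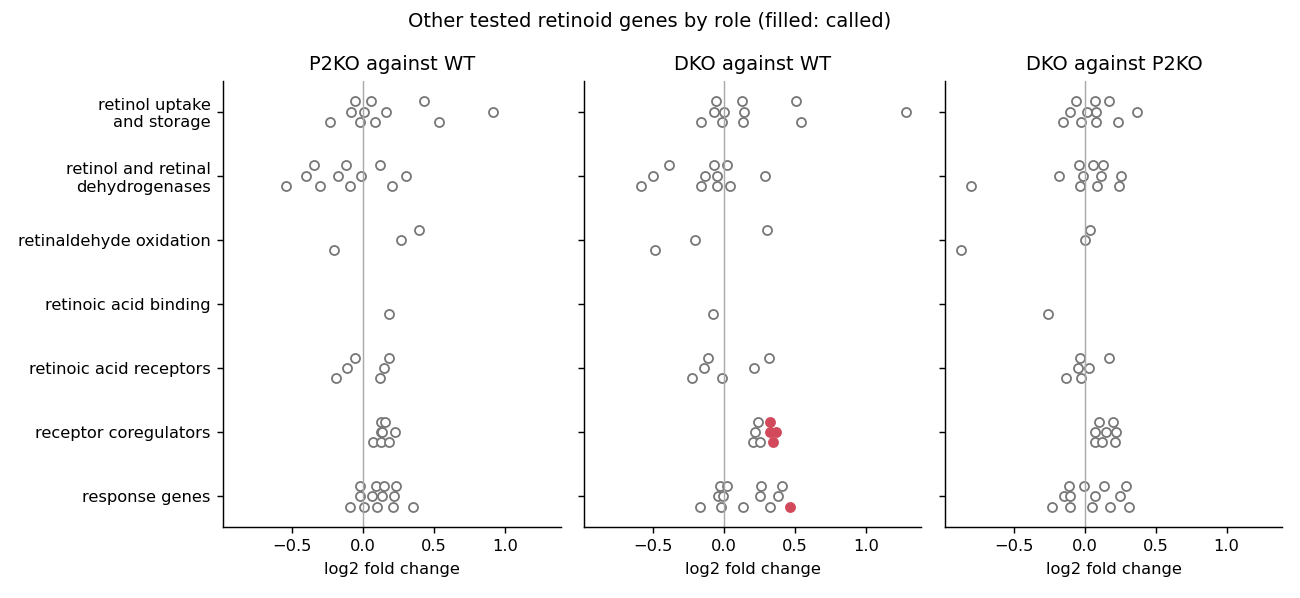
Log2 fold change of each of the 53 tested genes of the wider retinoid list by role in the 3 comparisons, with filled points for called genes. In DKO against WT the 8 coregulators lie together between 0.20 and 0.36 with 4 filled, the remaining filled point is Rarres1 at 0.47, and the point furthest to the right is Rbp7 at 1.29.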

How the data were processed

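RNA of whole testes was sequenced in 6 libraries, 2 per genotype. The authors trimmed reads with Trim Galore, used STAR to align them to GRCm38, and deposited whole-number counts of reads per Ensembl gene, neither normalized nor filtered. The versions and the strand counted are not given in the sources used here. A count table alone was used, grouped by the labels. Genes were kept by filterByExpr (minimum count 10) and tested with edgeR 4.0.16 in R 4.3.3 (TMM scaling, glmQLFit and glmQLFTest, all 6 libraries, genotype as the only term, 3 residual degrees of freedom), with Benjamini-Hochberg adjustment over all tested genes and calls at an adjusted p under 0.05. The standard error is the absolute log2 fold change over the square root of F. For normalized counts, counts were divided by a library's TMM-scaled size, itself taken over the geometric mean of all 6 sizes. RPKM uses TMM-scaled sizes and exon lengths of GENCODE M21 (Ensembl 96). Near copies were sought with BLAST 2.17.0. The fit was also run on simulated counts in which all genes had the same spread. That run does not bear on a gene with a larger spread of its own, such as Aldh1a1.

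The 9 genes and all lists were chosen with earlier results of these data known. Named genes are the 9, Padi2 and Padi4, called genes of the wider list, the most abundant and the most changed gene of each role, genes most like Aldh1a1, and leading markers, and some that this rule covers are not reported here. Other markers, Adh1, Adh4, Aldh1a7, Dhrs3, Meiosin and the remaining coregulators were named after their values were seen. Alternatives were other scalings (RLE, upper-quartile), filters (none, a mean of 50) and prior count (2), DESeq2 1.42.0, edgeR on 2 genotypes, the replicate number as a block, an offset for gene length (lowess span 0.3), chromosome 4 left out and each library left out. Robust dispersions and limma-voom (limma 3.58.1) were added after the data were seen. Replicates are separate mice. Deviations of same-numbered libraries correlated at -0.0572 to 0.0574. With 2 libraries per genotype this cannot settle whether equal numbers pair mice. Counts of 3 or fewer were taken as the floor, which no library of the 9 genes reached. The proteins of these genes were not analysed here.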

Additional observations from a re-analysis of the deposited data

How the results depend on the processing

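The count of the 9 genes called in DKO against WT was 1 as reported and 0 with DESeq2 on all 6 libraries, DESeq2 on the 2 genotypes and edgeR's robust dispersions, and ran from 0 to 1 when each library was left out. In DKO against P2KO it was 0 with the same 3 alternatives and otherwise 1. For the wider list, DKO against WT gave 5 calls as reported, 1 with DESeq2 on the 2 genotypes, 3 with the gene length offset alone or with the replicate block, and 1 to 9 with each library left out. Over all tested genes that comparison gave 428 higher and 240 lower calls as reported, 367 and 322 with upper-quartile scaling, 191 and 105 with DESeq2 on the 2 genotypes, 291 and 241 with the length offset, 257 and 219 with the offset and the block, 762 and 303 without WT replicate 1 and 129 and 121 without DKO replicate 2. For the wider list again, DKO against P2KO gave 0 calls as reported, 2 with edgeR and 2 with DESeq2 on the 2 genotypes compared, and 0 to 2 with each library left out, and P2KO against WT gave 0 to 4. The replicate block alone changed no call among the 9 genes or the wider list, while over all tested genes it gave 348 higher and 207 lower calls in DKO against WT. Aldh1a1 stayed at a log2 fold change of 0.50 against WT and 0.64 against P2KO under the block. Whether equal numbers pair mice is not known.

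Upper-quartile scaling turned the median of the wider list in DKO against WT from 0.020 to -0.003. With each library left out, the direction changed for some genes that were never called. Ranges of log2 fold change were -0.232 to 0.014 for Lrat, -0.187 to 0.144 for Rdh10 and -0.29 to 0 for Cyp26b1 in P2KO against WT, and -0.156 to 0.127 for Stra8, which was at 0.00 as reported. In DKO against WT they were -0.291 to 0.042 for Rdh10, -0.102 to 0.186 for Cyp26b1 and -0.135 to 0.342 for Crabp1. In DKO against P2KO they were -0.069 to 0.182 for Lrat, -0.284 to 0.162 for Cyp26a1, -0.262 to 0.016 for Stra8 and -0.032 to 0.115 for the median of the wider list. The cause was not tested. A genotype left with 1 library is assumed to vary like the others. Cyp26a1 and Crabp1 had the fewest counts and the largest standard errors of the 9.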
